A study of Mus musculus with 20 samples.

Results

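The AP-1 family genes described here are Fos, Fosb, Fosl1, Fosl2, Jun, Junb and Jund. They were taken by gene symbol, whatever their values, as 7 of the 51789 genes in a table of RNA levels from the intervertebral disc of old mice. The tissues were the soft centre of the disc, or nucleus pulposus (NP), and its outer lamellar ring, the annulus fibrosus (AF). All mice were BL6. Injections were intraperitoneal, began at 18 months of age and went on for 6 months, and the mice were killed at 24 months. The groups were NP and AF from mice given DMSO (vehicle), and NP and AF from mice given MDL-800 dissolved in DMSO, with 5 libraries in each. MDL-800 is a small-molecule activator of the chromatin deacylase SIRT6. Every group received DMSO, and the treated groups also received the compound. By its title the series is about activating SIRT6 in the ageing disc, and the comparisons here set MDL-800 against vehicle in each tissue and NP against AF under each treatment. The dose, the sex and the number of mice behind a library are not given in the sources used here.

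AP-1 is a dimeric transcription factor of the basic leucine zipper class. Fos proteins cannot pair with each other and bind DNA as partners of Jun proteins, whereas Jun proteins also form dimers among themselves. Fos, Fosb, Jun and Junb are immediate early genes, whose transcription rises within minutes of growth factors, mechanical load, stress or tissue handling and falls again soon after. Fosl1 and Fosl2 respond more slowly, and Jund is transcribed more steadily. In cartilage and disc cells AP-1 is known for transcription of matrix-degrading enzymes after inflammatory or mechanical stimuli.

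All 7 genes are protein-coding in GENCODE M21 on the mouse build GRCm38. Fos lies at chr12:85473890-85477273 on the plus strand and Fosb at chr7:19302696-19310051 on the minus strand. Fosl1 lies at chr19:5447547-5455946 and Fosl2 at chr5:32135801-32157842, both on the plus strand. Jun lies at chr4:95049034-95052222 on the minus strand, in 1 exon. Junb at chr8:84974484-84978718 (minus strand) and Jund at chr8:70698949-70700616 (plus strand) are on the same chromosome but far apart. Another gene overlaps each of these on the opposite strand, Prdx2 by 351 bases at Junb and Gm11175 by 919 bases at Jund. The library kit keeps strand, but whether strand was used in assigning reads is not given in the sources used here.

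The stretch just upstream of the start site is one place where stimulus-responsive factors act at these genes. It is shown for the immediate early members Fos, Fosb, Jun and Junb, the tested members with the widest spread inside NP vehicle. The 120 bases before the start site are from RefSeq on GRCm38.p6, printed 5′ to 3′ on the gene's own strand. RefSeq promoters matched 6 of the 7 genes by symbol. Fosl2 and Jund were left out because their RefSeq start sites are 671 and 1210 bases from those of GENCODE. Capitals mark TGACG (the core of the cyclic AMP response element, CRE), TGACATCA (a variant AP-1 site) and TATAAA.
Fos, chr12:85473770-85473889, plus strand: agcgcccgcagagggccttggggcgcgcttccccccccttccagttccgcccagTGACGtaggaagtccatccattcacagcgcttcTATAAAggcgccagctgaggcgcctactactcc
Fosb, chr7:19310046-19310165, minus strand: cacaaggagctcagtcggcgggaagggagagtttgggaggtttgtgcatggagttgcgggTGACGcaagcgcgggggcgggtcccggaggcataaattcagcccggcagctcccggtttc
Jun, chr4:95052223-95052342, minus strand: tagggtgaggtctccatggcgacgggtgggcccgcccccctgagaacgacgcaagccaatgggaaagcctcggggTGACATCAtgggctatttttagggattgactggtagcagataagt
Junb, chr8:84978749-84978868, minus strand: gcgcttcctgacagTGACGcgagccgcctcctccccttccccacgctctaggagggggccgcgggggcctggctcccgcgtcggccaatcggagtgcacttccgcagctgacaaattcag

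In the 250 bases searched on both strands, TGACG stood 66 to 62 bases before the Fos start, 60 to 56 before that of Fosb and 106 to 102 before that of Junb. Fos held another 129 to 125 bases before its start, outside the stretch shown. Jun had no TGACG in this window and held TGACATCA 45 to 38 bases before its start. Of 32851 mouse promoter windows of the same length, 17.8% hold TGACG and 2.93% hold TGACATCA. TATAAA, found 33 to 28 bases before the Fos start, is in 12.4% of them. CCAAT, found in Jun (65 to 61 bases before the start) and Junb (36 to 32), is in 33.8%. Searches for TGANTCA, the AP-1 consensus, for TGACGTCA, the full CRE, and for the CArG box found none in these windows, and 6.75%, 1.55% and 1.47% of all windows hold them. TGACGTCA contains TGACG, so those searches overlap. Bases farther upstream were not searched, so no lack of such sites at these genes is read from this. These are matches of letters, and no binding was measured.

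Values are FPKM, fragments per kilobase of transcript relative to all mapped fragments of the library, divided by a size factor for each library (scaled FPKM), so levels of different genes can be compared per length. Fold changes are log2 differences of scaled FPKM plus 1, tested with limma against all 16383 genes that reached 1 FPKM in at least 5 libraries. A gene is called when its Benjamini-Hochberg adjusted p, over all these genes, is under 0.05. Of the 7 members 6 were tested and Fosl1 was too low. Sequencing depth is not in the table and was not estimated here, so its part in any value is unknown. These are bulk samples, in which fewer cells of a type and less RNA per cell cannot be told apart.

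The labels were checked against tissue markers. In vehicle libraries 7 of 9 tested NP markers were higher in NP, among them T (brachyury), Krt8 and Krt19, while Car12 and Pax1 were lower. Of 9 AF markers 8 were lower in NP, and Fmod was not called. AF also carried RNA of neighbouring cells: all tested markers of neutrophils (9), macrophages (8), bone (8), skeletal muscle (8), red blood cells (7) and endothelium (7) were called lower in NP under either treatment. The summed neutrophil markers were 192 to 3115 scaled FPKM in NP libraries and 6130 to 32949 in AF. Macrophage markers summed to 66.2 to 393 in NP and 1118 to 2705 in AF, and bone markers to 48.4 to 151 and 651 to 1811. For muscle the sums were 11.1 to 1253 in NP and 882 to 9561 in AF, for red cells 27.6 to 208 and 598 to 3222, and for endothelium 1.78 to 9.15 and 50.6 to 117. No marker of these lists was at 0 in all libraries of a group, and none was called between treatments in either tissue.

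Among the Fos genes, Fos had the highest level and a wide spread inside every group. In NP vehicle libraries 1, 2, 3, 5 and 6 it was 20.0, 27.7, 361, 137 and 146 scaled FPKM. In NP MDL-800 libraries 15, 18, 19, 20 and 22 it was 405, 196, 174, 161 and 80.2. The groups overlap, since NP vehicle library 3 lay above 4 of the treated libraries, and the spread within NP vehicle alone was 18.1-fold. In AF vehicle libraries 8, 9, 10, 12 and 13 Fos was 66.5, 29.4, 275, 59.6 and 90.3, and in AF MDL-800 libraries 25, 27, 28, 29 and 30 it was 117, 198, 95.2, 202 and 57.7. One AF vehicle library, number 10, stood above all AF MDL-800 libraries. Group means ran from 104 ± 98.0 scaled FPKM (SD, n = 5) in AF vehicle through 134 ± 63.9 in AF MDL-800 and 138 ± 138 in NP vehicle to 203 ± 121 in NP MDL-800, and all neighbours in this order overlap.

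Fosb, which encodes a close relative of Fos and a shorter splice form that lacks part of the activation region, also varied widely inside each group. NP vehicle libraries held 0.547, 10.3, 34.7, 20.5 and 13.0 scaled FPKM, and NP MDL-800 libraries 48.1, 42.0, 35.6, 19.8 and 15.3, in the library order given for Fos. AF vehicle libraries held 3.96, 5.79, 32.0, 10.7 and 10.2, and AF MDL-800 libraries 15.2, 39.3, 11.1, 36.7 and 22.7. Both tissues had overlapping treatment groups, and library 1 of NP vehicle had the lowest Fosb of all 20. The mean was 12.5 ± 11.2 (SD, n = 5) in AF vehicle, 15.8 ± 12.8 in NP vehicle, 25.0 ± 12.6 in AF MDL-800 and 32.2 ± 14.2 in NP MDL-800.

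Fosl2, which encodes Fra-2, a factor of cartilage and bone, was the steadiest member. It lay between 17.4 and 34.9 scaled FPKM in all 20 libraries, with a spread of at most 1.70-fold inside a group. Its group means were 21.4 ± 3.79 (SD, n = 5) in NP vehicle, 24.6 ± 4.16 in AF vehicle, 25.2 ± 3.36 in AF MDL-800 and 26.8 ± 5.64 in NP MDL-800, and all 4 groups overlap. Fosl1, which encodes Fra-1, was under 1 scaled FPKM in every library. It ranged from 0 to 0.296 in NP vehicle, with NP vehicle library 1 listed at 0, from 0.0952 to 0.831 in NP MDL-800, from 0.0869 to 0.847 in AF vehicle and from 0.247 to 0.579 in AF MDL-800. No test was made of Fosl1.

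With MDL-800 in NP, none of the 3 tested Fos genes was called. The log2 fold change was 1.08 for Fos (95% interval -0.58 to 2.73, adjusted p = 0.558), 1.42 for Fosb (-0.18 to 3.03, adjusted p = 0.419) and 0.31 for Fosl2 (-0.04 to 0.65, adjusted p = 0.417), all by limma. The direction of Fos rested on 2 libraries: with NP vehicle 1 and 2 left out, a choice made after their low values were seen, it was -0.12. The Fosb difference was 0.70 without NP vehicle 1 and 0.46 without both libraries. In AF the differences were 0.62 for Fos (-0.59 to 1.83), 1.12 for Fosb (-0.004 to 2.24) and 0.04 for Fosl2 (-0.26 to 0.34), each with an adjusted p of 1 by limma. Between tissues the Fos genes were not called under either treatment. In vehicle mice the NP minus AF difference was 0.10 (-1.68 to 1.88) for Fos, 0.07 (-1.65 to 1.79) for Fosb and -0.19 (-0.52 to 0.14) for Fosl2. Leaving out single vehicle libraries turned the sign of Fos and of Fosb in that comparison. Under MDL-800 the differences were 0.55 (-0.41 to 1.52), 0.38 (-0.51 to 1.27) and 0.08 (-0.24 to 0.39). The intervals for Fos and Fosb are wide enough to hold more than a doubling in either direction in vehicle mice.

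**Figure D1:**
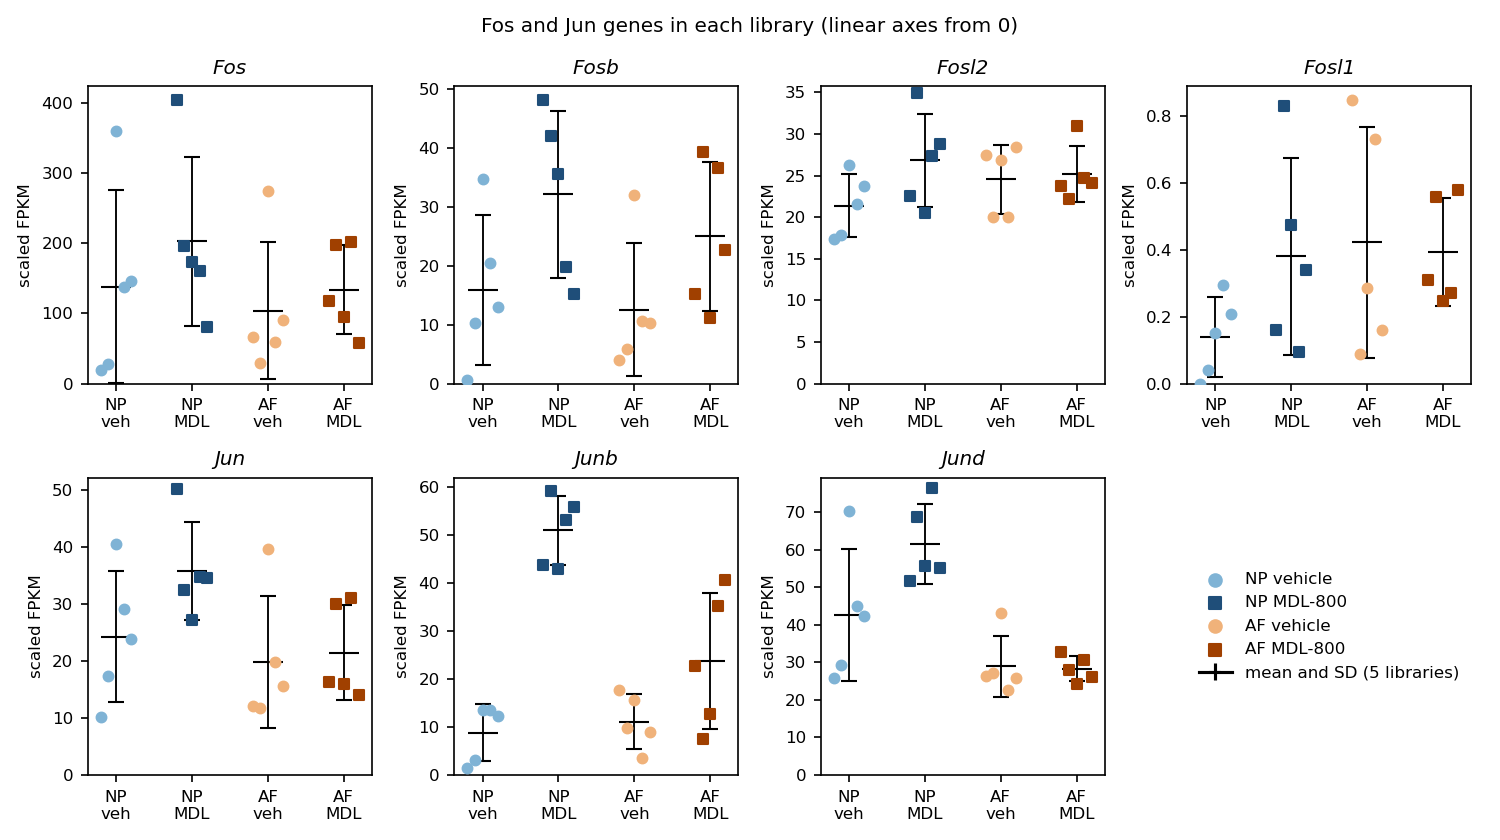
Scaled FPKM of each Fos and Jun gene (linear vertical axes from 0) in every library of the 4 groups, with the group mean and SD of 5 libraries. Junb in NP is the case in which treated and vehicle libraries do not overlap (43.0 to 59.2 against 1.54 to 13.6). Fos and Fosb spread at least 3.15-fold inside each group, and Jun 1.85-fold in NP MDL-800 to 3.95-fold in NP vehicle.

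Among the Jun genes, Junb differed most between treatments. Its protein is a Jun partner with weaker activation than that of Jun on many promoters. NP vehicle libraries 1, 2, 3, 5 and 6 held 1.54, 3.10, 13.5, 13.6 and 12.3 scaled FPKM of Junb. All 5 NP MDL-800 libraries were higher, at 43.9, 59.2, 43.0, 53.1 and 55.9. The means were 8.81 ± 5.97 (SD, n = 5) and 51.0 ± 7.25, and the lowest treated library lay well above the highest vehicle library. In AF vehicle libraries Junb was 17.7, 9.74, 15.7, 3.50 and 9.04, and in AF MDL-800 libraries 22.8, 7.51, 12.7, 35.2 and 40.7. The AF groups overlap: treated libraries 27 and 28 lay inside the vehicle range and the other 3 above it. Ordered by mean, NP vehicle (8.81) and AF vehicle (11.1 ± 5.67) did not differ beyond their spread, nor did AF vehicle and AF MDL-800 (23.8 ± 14.2), while NP MDL-800 stood apart from AF MDL-800.

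The log2 fold change of Junb with MDL-800 in NP was 2.72 ± 0.47 (SE; 95% interval 1.67 to 3.77), a 6.59-fold difference. Its unadjusted p was 0.000149, rank 45 among all tested genes, and its adjusted p by limma was 0.0519, just over the threshold. Junb therefore was not called, and nor was any other member. Of all tested genes 41, or 0.250%, were called in this comparison (0.232% higher and 0.0183% lower), and the groups of 5 did not overlap for 4.50%. That background is not stable: without NP vehicle 3 or NP MDL-800 22 it was 2 genes, 0% of them higher, and without NP vehicle 6 it was 189, 94.7% higher. A count of 0 in 6 lies at that background, and Junb was the member of 6 without overlap. With other settings of the processing the adjusted p of Junb ranged from 0.00112 to 0.159, and it was called in 6 of 11 settings and in 1 of 10 fits that left out a library. The direction was the same in each, with log2 fold changes of 1.87 to 2.95. The smallest difference, 1.87 with an adjusted p of 0.00112 (limma), came with NP vehicle 1 and 2 left out. That omission and the removal of the GC trend, both among the settings that called Junb, were chosen after the data were seen. Leaving out these lowest libraries narrowed the vehicle range of Junb to 12.3 to 13.6 scaled FPKM, so the small p is not read as support.

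In AF the Junb difference was 0.96 ± 0.50 (SE; interval -0.14 to 2.06, adjusted p = 1 by limma). No gene was called in AF (0%), 270 had an unadjusted p under 0.05, the smallest adjusted p of any gene was 0.637, and groups did not overlap for 0.226% of genes and for none of the 6 members. The NP effect of MDL-800 exceeded that in AF by 1.76 ± 0.72 for Junb (interval 0.25 to 3.28, unadjusted p = 0.0251, adjusted p = 0.9997 in a limma fit of all 4 groups). No gene passed the test of that difference (0%), and 611 had an unadjusted p under 0.05. A larger Junb effect in NP than in AF is therefore not shown.

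Jun encodes c-Jun, the partner with the strongest activation region. It was 10.2, 17.4, 40.4, 29.0 and 23.8 scaled FPKM in the NP vehicle libraries and 50.0, 32.5, 27.1, 34.6 and 34.5 in the NP MDL-800 libraries. The groups overlap, with NP vehicle library 3 above 4 of the treated libraries, as for Fos. AF vehicle libraries held 12.1, 11.7, 39.7, 19.7 and 15.7, and AF MDL-800 libraries 16.3, 29.9, 16.0, 31.1 and 14.0, again with AF vehicle library 10 highest. The mean rose in the order AF vehicle (19.8 ± 11.6, SD, n = 5), AF MDL-800 (21.5 ± 8.31), NP vehicle (24.2 ± 11.5) and NP MDL-800 (35.7 ± 8.56), with each neighbouring pair overlapping. With MDL-800 the log2 difference of Jun was 0.65 (interval -0.03 to 1.33, adjusted p = 0.382 by limma) in NP and 0.18 (-0.58 to 0.94, adjusted p = 1) in AF.

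Jund encodes the Jun partner that is transcribed most steadily in many cell types. NP vehicle libraries held 25.9, 29.3, 70.5, 45.1 and 42.4 scaled FPKM and NP MDL-800 libraries 51.6, 68.6, 55.6, 76.5 and 55.1. Only NP vehicle library 3 reached into the treated range. In AF all libraries lay between 22.6 and 43.3, with vehicle library 10 again highest. The mean was 28.4 ± 3.40 (SD, n = 5) in AF MDL-800, 29.0 ± 8.14 in AF vehicle, 42.6 ± 17.6 in NP vehicle and, highest, 61.5 ± 10.6 in treated NP. With MDL-800 the log2 difference was 0.59 in NP (interval 0.06 to 1.12, adjusted p = 0.299 by limma) and -0.002 in AF (-0.37 to 0.36). The NP value did not keep its sign when each library's trend with GC content was removed, at -0.06.

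**Figure D2:**
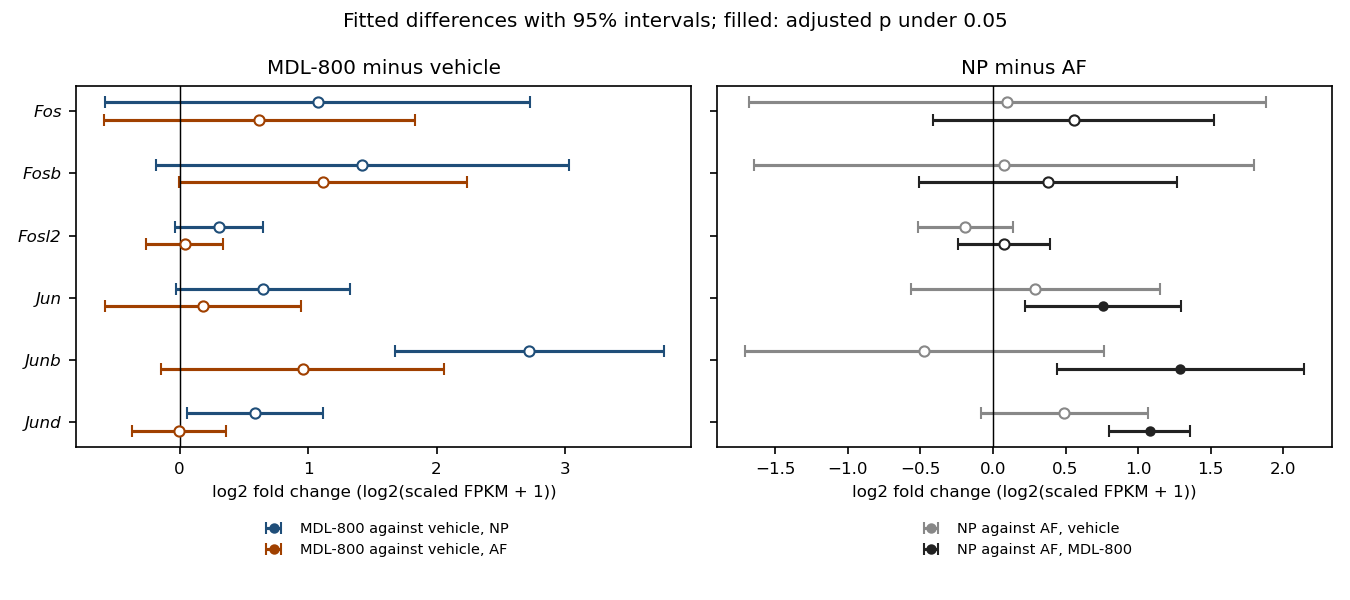
Log2 fold change of each tested member with its 95% interval, for MDL-800 against vehicle in each tissue (left) and NP against AF under each treatment (right). Filled points are called at an adjusted p under 0.05: these are Jun, Junb and Jund in NP against AF under MDL-800.

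Between the tissues of vehicle mice no member was called. The differences were 0.29 for Jun (interval -0.56 to 1.15), -0.47 for Junb (-1.71 to 0.76) and 0.49 for Jund (-0.09 to 1.06, adjusted p = 0.135 by limma). Over all genes 55.7% were called in this comparison, 21.8% higher in NP and 33.9% lower, and groups did not overlap for 41.0%. The members' count of 0 in 6, with 0 of 6 free of overlap, is below that background. Jund passed when the GC trend was removed (0.72, adjusted p = 0.00736, limma). Junb changed sign, to 0.63, when the 4 vehicle libraries NP 1 and 2 and AF 8 and 9 were left out.

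Under MDL-800 the 3 Jun genes were higher in NP than in AF, Jun by 0.76 ± 0.24 (SE, adjusted p = 0.0185), Junb by 1.29 ± 0.39 (adjusted p = 0.0131) and Jund by 1.08 ± 0.13 (adjusted p = 3.44e-05), all by limma. As folds these are 1.69, 2.45 and 2.12. For Junb the lowest NP library (43.0) lay just above the highest AF library (40.7), and for Jund the gap was wider (51.6 against 32.7), while for Jun the groups overlap. In this comparison 62.8% of all genes were called, 25.6% higher and 37.2% lower, and groups did not overlap for 49.1%. The members' 3 of 6 called, all higher, and 2 of 6 free of overlap are few genes beside those shares, and nothing is read from them. The call of Jun was lost in a fit of all 4 groups (adjusted p = 0.0625). That Jun genes were called under MDL-800 and not in vehicle mice does not show that the tissue difference changed: the difference of differences is the test reported for Junb, and for Jun and Jund it gave 0.47 (interval -0.55 to 1.48) and 0.59 (-0.04 to 1.23), each with an adjusted p of 0.9997 by limma. Quantile normalization moved the median of all genes between tissues from -0.08 to 0.20 in vehicle and 0.21 under MDL-800, and the share of called genes that were higher from 39.2% to 62.3% and from 40.7% to 61.7%. All 3 calls held in that setting.

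The comparisons share libraries, so their values are set side by side only. The median log2 difference of the 6 tested members was 0.86 for MDL-800 in NP, where the median of all genes was -0.03, and 0.40 in AF, where it was 0.01. For NP against AF it was 0.09 in vehicle mice and 0.66 under MDL-800, with a median of all genes of -0.08 in both. For the difference of the MDL-800 effects it was 0.46 against -0.02.

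The make-up of the Jun genes' RNA differed with Junb. Junb was 4.09% to 15.7% of the summed FPKM of Jun, Junb and Jund in NP vehicle libraries and 30.2% to 38.4% in NP MDL-800 libraries. In AF vehicle it was 7.63% to 31.5% and in AF MDL-800 11.5% to 50.3%. The shares separate by treatment in NP and overlap in AF, as the Junb levels do, and they were not tested because they are built from the same values. Fos took most of the summed FPKM of the Fos genes in every group, with medians of 76.4% in NP vehicle, 75.5% in NP MDL-800, 67.3% in AF vehicle and 74.9% in AF MDL-800.

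Some libraries were low or high across the family. NP vehicle library 1 had the lowest level of its group in 6 of 6 tested members, and library 2 the next lowest in 6 of 6. Library 3 was the highest in 5 of 6. In AF vehicle, library 10 was the highest for 4 of 6. The sum of all 7 members ran from 75.7 scaled FPKM (library 1) to 546 (library 3) in NP vehicle. Treated NP libraries ran from 270 to 621, so a vehicle library lay near the top of the treated range.

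The trend of levels with GC content set the low NP vehicle libraries 1 and 2 apart. It did not set apart the high libraries, NP vehicle 3 and AF vehicle 10. A slope of log2 level on GC content across genes, in log2 units per 10 percentage points of GC, was -0.285 and -0.278 in NP vehicle 1 and 2, -0.0495 to -0.00672 in the other 3, and 0.0228 to 0.0885 in the 5 treated NP libraries, with no overlap between the treatments. Junb (62.6% GC in its longest transcript) and Jund (67.1%) are GC-rich beside the median tested gene (49.3%), and Fos has 51.9%. In AF the lowest Junb of each treatment was also in the library with the lowest slope, vehicle 12 (-0.238) and MDL-800 27 (-0.106). With the GC trend removed from each library, an alternative added after the data were seen, the Junb difference in NP was 2.25 with an adjusted p of 0.0456 (limma), and that of Jund was -0.06. In NP the slope goes with treatment, so the parts of GC trend and of MDL-800 in these differences cannot be told apart.

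**Figure D3:**
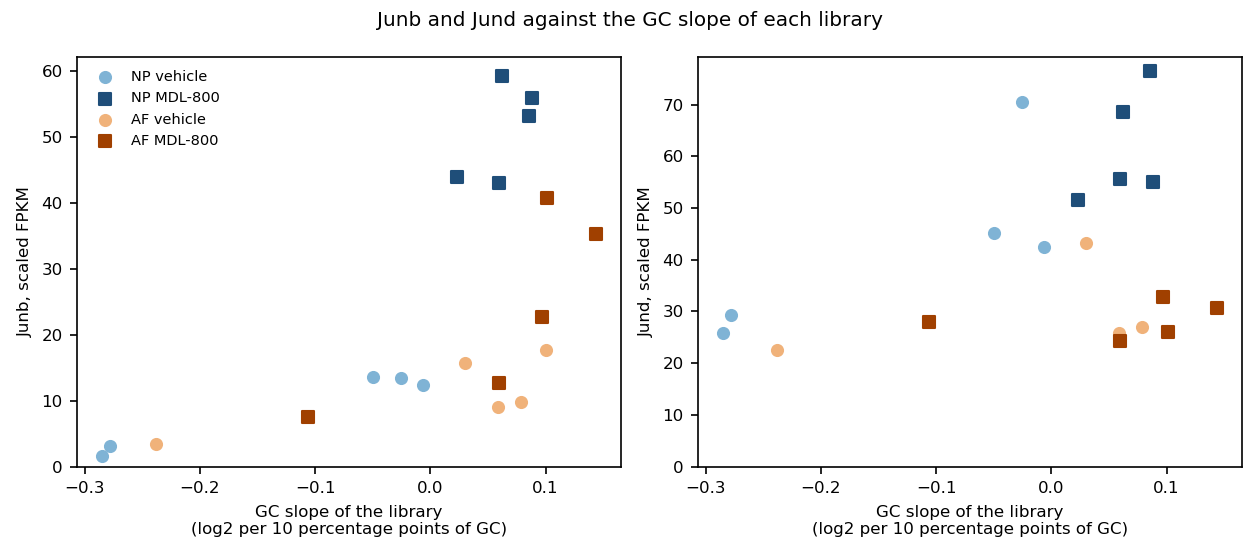
Scaled FPKM of Junb (left) and Jund (right) against the GC slope of each library, in log2 units per 10 percentage points of GC, with 5 libraries in each of 4 groups. NP vehicle libraries lie at negative slopes with Junb at 13.6 or less, and NP MDL-800 libraries lie at positive slopes with Junb at 43.0 or more. AF libraries lie at slopes from -0.238 to 0.144, with Junb of 3.50 to 17.7 in vehicle and 7.51 to 40.7 with MDL-800.

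Across libraries of a tissue, Fos, Fosb and Jun varied together. Over the 10 NP libraries Fos and Fosb had Pearson's r = 0.87 (permutation p = 9e-05, adjusted p = 0.0027) and Spearman's rho = 0.90 (permutation p = 0.00082, adjusted p = 0.0246), and r was 0.78 without the 2 libraries farthest from the median of Fos. Over the 10 AF libraries they had r = 0.78 (permutation p = 0.00817, adjusted p = 0.0189) and rho = 0.70 (permutation p = 0.0303, adjusted p = 0.091), with r = 0.70 without the 2 farthest. Fos and Jun had r = 0.90 in NP (permutation p = 0.00048, adjusted p = 0.0062; rho = 0.77, permutation p = 0.0122, adjusted p = 0.0734; 0.64 without the 2 farthest). In AF the same genes had r = 0.89 (permutation p = 0.00062, adjusted p = 0.0062; rho = 0.85, permutation p = 0.00289, adjusted p = 0.0433; 0.83 without the 2 farthest). For Fosb and Jun r was 0.90 in NP (permutation p = 0.00122, adjusted p = 0.00915; rho = 0.71, permutation p = 0.0268, adjusted p = 0.091; 0.62 without the 2 farthest) and 0.84 in AF (permutation p = 0.00302, adjusted p = 0.0124; rho = 0.78, permutation p = 0.011, adjusted p = 0.0734; 0.79 without the 2 farthest). These tests were two-sided, used 100000 draws and were adjusted over the 30 pairs of members in both tissues. All 6 of these relations passed by Pearson's r, but by rank only Fos with Fosb in NP and Fos with Jun in AF did. With values centred on treatment groups, r in NP was 0.85 for Fos with Fosb, 0.89 for Fos with Jun and 0.86 for Fosb with Jun. Without the 2 farthest libraries these centred values were 0.70, 0.73 and 0.45. In AF the centred values without the 2 farthest were 0.54, 0.80 and 0.84.

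By Pearson's r those 3 pairs were the ones of 15 that passed in AF. In NP 12 of 15 passed, but 2 were left without NP vehicle library 1 and 3 without library 2, so the NP count rests on those libraries. With values centred on the mean of each treatment group 11 pairs passed in NP and 4 in AF. Junb in NP falls into separate ranges by treatment, so its values are given centred: r was 0.80 with Fos (permutation p = 0.00491, adjusted p = 0.0184; rho = 0.70, permutation p = 0.031, adjusted p = 0.086), 0.82 with Jun (permutation p = 0.00377, adjusted p = 0.0162; rho = 0.73, permutation p = 0.0208, adjusted p = 0.0781) and 0.83 with Jund (permutation p = 0.00319, adjusted p = 0.0159; rho = 0.76, permutation p = 0.0158, adjusted p = 0.0763). None of these 3 passed by rank. Without the 2 farthest libraries these were 0.60, 0.54 and 0.65. In AF no pair with Junb passed: centred in the same way, r ran from -0.10 (Jun, permutation p = 0.775) to 0.45 (Jund, permutation p = 0.192), and uncentred from -0.004 to 0.38. Without the 2 farthest libraries the centred values ran from -0.84 (Jun) to 0.72 (Fosl2). The AF values with Junb therefore depend on few libraries, and no absence of a relation is read from them. Whether the relations differ between tissues was not tested.

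**Figure D4:**
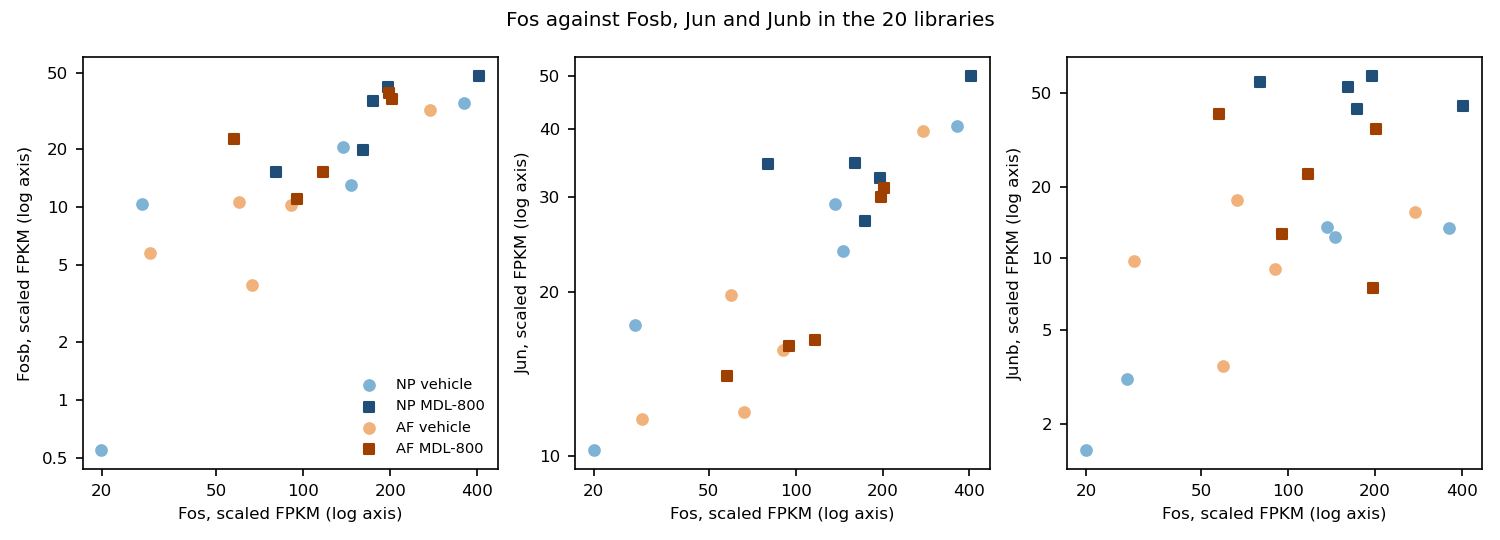
Levels of Fosb, Jun and Junb (vertical log axes) against Fos (horizontal log axis) in the 20 libraries, in scaled FPKM. Fosb and Jun climb with Fos in both tissues (r of 0.78 to 0.90 over 10 libraries each), and in the Junb panel the NP libraries lie in separate ranges by treatment (1.54 to 13.6 and 43.0 to 59.2).

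The headings of the deposited columns carry a further number, shared by some NP and AF libraries, whose meaning is not given in the sources used here. In 8 pairs of NP and AF libraries with the same number and treatment, centred on their groups, Fos had r = 0.77 (exact permutation within treatment, p = 0.0403, adjusted p = 0.15; rho = 0.69; 0.84 without the 2 farthest). Fosb had r = 0.78 (exact permutation p = 0.05, adjusted p = 0.15; rho = 0.83; 0.53 without the 2 farthest), Jun 0.64, Jund 0.55, Fosl2 0.43 and Junb -0.28. None of the 6 passed the adjustment, and the relation was looked for after the values had been seen. NP vehicle libraries 1, 2 and 3 share their numbers with AF vehicle 8, 9 and 10, and their Fos levels in NP and AF were 20.0 and 66.5, 27.7 and 29.4, and 361 and 275 scaled FPKM.

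The genes whose values were most like each member's over the 20 libraries, centred on group means, were searched among 10709 other genes with a mean of at least 5 scaled FPKM. They are given as descriptions, without a test, and points share the libraries and their depth. Fos was most like Klf2, a transcription factor (r = 0.93), and Socs3, an inhibitor of cytokine signalling (0.93). Fosb was most like Egr1, a zinc finger immediate early gene (0.89), and Arl4a, a small GTPase (0.87). Fosl2 was most like Klf13 (0.92) and Notch2 (0.89), and Jun was like Egr1 (0.86). For Jund they were Zfp395 (0.87) and Sorbs3 (0.86).

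Junb had the highest likeness of any member, with Fbxw9, an F-box gene (r = 0.97), and Lzts2, a leucine zipper gene (0.94). Fbxw9 lies on the same chromosome, 81.3 kb from Junb. Lzts2 was among the genes called with MDL-800 in NP (log2 fold change 1.05, adjusted p = 0.0426 by limma), whereas Fbxw9 was not (0.51, adjusted p = 0.425). Lzts2 is as GC-rich as Junb (63.1% and 62.6%), and Fbxw9 has 52.9%. The part of the libraries' GC trends in these likenesses and in the call of Lzts2 was not tested. Prdx2, which overlaps the end of Junb on the other strand, differed by -0.24 with MDL-800 in NP (adjusted p = 0.393 by limma). Gm11175, which lies within Jund on the other strand, had 0.76 there (adjusted p = 0.153 by limma). It was called higher in NP than AF under MDL-800 (0.80, adjusted p = 0.00563 by limma), as Jund was. The part of reads from the overlapping genes in the Junb and Jund values was not tested.

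Genes around AP-1 were counted in lists named by their function. Between tissues 55.7% of all genes were called in vehicle mice, 21.8% higher in NP and 33.9% lower. Under MDL-800 62.8% were called, 25.6% higher and 37.2% lower. The lists are small beside those shares, and nothing is read from their counts. Of 11 tested bZIP partners (ATF, BATF, JDP and MAF genes) 2 were higher and 5 lower in NP than AF in vehicle mice, with a median of -0.35 beside -0.08 over all genes. Maff was lower (-1.56), and Maf was higher (0.94). Under MDL-800, 4 were higher and 6 lower (median -0.47), with Maf higher (1.14) and Batf lower (-1.64). Of 18 tested kinases and factors upstream of AP-1, 3 were higher and 3 lower in vehicle (median -0.10) and 6 higher and 6 lower under MDL-800 (median 0.11). Mapk8, which encodes the Jun kinase JNK1, was higher in NP (0.87 in vehicle, 0.85 under MDL-800), and Mapk14, which encodes p38 alpha, was lower (-1.23 and -1.32). Elk3 (-0.98 in vehicle) and Map2k4 (-0.53 under MDL-800) were lower as well. All of these tests are limma over all genes. The macrophage markers had a median of -3.88 in vehicle, and their part in these values was not tested.

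Other immediate early genes stood beside the members. Their counts between tissues are also set beside 55.7% of all genes called in vehicle and 62.8% under MDL-800, and nothing is read from them. Of 20 tested, 2 were higher and 7 lower in NP in vehicle (median -0.49), with Nr4a2 (-1.67), Dusp2 (-1.21) and Myc (-1.02) lower. Under MDL-800, 6 were higher and 8 lower (median -0.13), with Nr4a2 (-1.81) and Dusp2 (-1.12) lower and Ier3 (1.63) higher. With MDL-800 in NP 0 of 20 were called, where 0.250% of all genes were. Of the 20, 18 had a positive difference, and the median was 0.46 beside -0.03 over all genes. In AF 0 of 20 were called (0% of all genes), 18 of 20 were positive and the median was 0.22 beside 0.01. Egr1 in NP was 70.7 ± 44.8 scaled FPKM (SD, n = 5) in vehicle and 141 ± 63.3 with MDL-800 (log2 difference 1.18, adjusted p = 0.357 by limma).

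Textbook AP-1 targets, many of them matrix proteases and cytokines, were called between tissues and not between treatments, as were most called genes of the table. Of 17 tested, 4 were higher and 10 lower in NP in vehicle (median -1.65), and 4 and 11 under MDL-800 (median -1.26), where 55.7% and 62.8% of all genes were called. Mmp3 was 0.291 ± 0.268 scaled FPKM (SD, n = 5) in NP vehicle and 19.1 ± 7.16 in AF vehicle (log2 difference -3.91), and Mmp13 was 2.80 ± 2.52 and 79.5 ± 25.7 (-4.60). Both encode matrix metalloproteinases. Plau, which encodes urokinase, was lower in NP in vehicle (-2.63) and under MDL-800 (-2.80), and so were Mmp13 (-5.35) and Lox (-4.14), a collagen cross-linking enzyme, under MDL-800. With MDL-800 0 of 17 were called in either tissue, beside 0.250% and 0% of all genes, with medians of -0.06 in NP and -0.10 in AF. Markers of bone, neutrophils and macrophages were lower in NP in the same comparisons, and their part in these values was not tested.

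Of 6 heat shock genes, listed because they respond to handling, 2 were higher in NP in vehicle (Hspb1, 1.52, and Hspa1a, 1.30). Under MDL-800 3 were higher (Hspa1a, 1.94, Hspb1, 2.09, and Hspa1b, 1.26) and 1 lower. These counts are few genes beside the 55.7% and 62.8% of all genes called, and nothing is read from them. With MDL-800 in NP 0 of 6 were called, beside 0.250% of all genes. Of the 6, 4 were positive, with a median of 0.46. Their mean log2 level was 4.97 to 5.41 in vehicle libraries of NP, with libraries 1 and 2 lowest, and 5.41 to 5.89 in treated ones. That of the other immediate early genes was 3.35 to 4.52 and 4.17 to 4.76. The part of handling in the levels of the Fos and Jun genes was not tested.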

How the data were processed

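Ribosome-depleted, stranded total RNA libraries were made from 50 ng of RNA with 14 PCR cycles, per the labels' protocols. The tissue was dissected into a stabilising solution. The submitters' processing notes name STAR 2.7.11b and the build mm10. The program that assigned reads to genes, its annotation and its use of strand are not given in the sources used here. The authors deposited FPKM values for 51789 genes in 20 columns, all matched to samples by name. Depth is not in that table.

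FPKM values were divided by size factors (0.933 to 1.06, each library's median ratio to gene-wise geometric means, from 11308 genes that reached 1 FPKM everywhere), and log2(scaled FPKM + 1) was tested with limma 3.58.1 (mean-variance trend, two-sided, R 4.3.3) on the 2 groups compared. The difference between MDL-800 effects used all 4 groups. Genes at 1 FPKM in at least 5 of 20 libraries were kept (16383) and p-values were adjusted over all of them at a threshold of 0.05. The test was checked on simulated data with independent normal noise for each gene. Those data held no shifts of whole libraries, so the check does not cover such shifts. Correlations used Python 3.11.15 with SciPy 1.17.1.

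The members and lists were chosen with earlier results of these data known. Named genes are all members, up to 3 called genes of each AP-1 list in each comparison by smallest p, and the 2 genes most like each member; some genes that this rule takes are not reported here. Some markers, Egr1, Fbxw9 and the overlapping genes were named beside a result after values were seen. Sample titles of different groups share no replicate numbers. Same-numbered column headings gave correlations of -0.178 to 0.285 between NP and AF deviations (3 of 8 over 0.1). That check cannot exclude that a number marks a mouse. Its meaning is not given, so libraries were not paired. If mice were shared, the tissue tests ignore that pairing, and fits with the number as a block are given below. No label says that libraries of a group come from separate mice, so p-values measure only the spread between these libraries, which may be technical.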

Additional observations from a re-analysis of the deposited data

Results flagged for a closer look

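AF vehicle library 10 lay far above the other 4 AF vehicle libraries for 4 members: Fos at 275 scaled FPKM, Fosb at 32.0, Jun at 39.7 and Jund at 43.3. On this linear scale the gap to the next library was, for each, more than 0.71 of the range of the group, the 95% critical value of Dixon's test for 5 samples. On the log2 scale used for the tests that share was 0.501 for Fos, 0.549 for Fosb, 0.578 for Jun and 0.725 for Jund, so Jund alone exceeded it there. The check covered 28 sets of 5 libraries and found 4, all in this library, and chance alone marks about 1 set in 20. The 4 are not independent, being 1 library, and Fos, Fosb and Jun vary together in AF. The column heading of this library carries the same number as NP vehicle library 3, which had the highest Fos, Fosb, Jun and Jund of its group.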

How the results depend on the processing

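The 0 called members in AF with MDL-800 and in the difference of effects, and the 2 or 3 called in NP against AF under MDL-800, were found under every setting run. Of 685 alternative values for single members 644 kept direction and call, 30 changed sign, 9 gained and 2 lost a call. For MDL-800 in NP, Junb alone was called, making 1 member, with a pseudocount of 5 (adjusted p = 0.029), quantile normalization (0.0406), 1 FPKM in all libraries (0.0252), library weights (0.0493), the GC trend removed (0.0456) and NP vehicle 1 and 2 left out (0.00112), all limma. The GC setting and the omission of NP vehicle 1 and 2 were chosen after the data were seen. Of the single omissions, which gave 0 to 1 called members, Junb was called without NP vehicle 6 (adjusted p = 0.0367, limma). The 41 genes called there became 18 without scaling, 70 with quantile normalization, 7 without a filter, 230 at 1 FPKM in all libraries (11308 tested), 4 with all 4 groups, 18 without a trend and 11 with NP vehicle 1 and 2 left out. Leaving out 1 library gave 2 (vehicle 3 or MDL-800 22) to 189 (vehicle 6). In AF with MDL-800 and in the difference of effects single omissions gave 0 to 1. At 1 FPKM in all libraries, genes called between tissues fell to 5588 (vehicle) and 6652 (MDL-800).

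No pairing is shown by the labels. With the heading number as a replicate block, Jund was called between tissues in vehicle (0.49, adjusted p = 0.0422, limma), giving 1 called member, as did removing the GC trend. Under MDL-800 the block, on 3 pairs, lost Jun (0.72, adjusted p = 0.12), left Fosl2 at -0.011 and called 7858 genes. In vehicle it called 8783.

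Signs also turned between tissues in vehicle for Fosb (-0.087, pseudocount 0.1), Junb (0.63, NP 1 and 2 and AF 8 and 9 left out), Fos (omissions -0.42 to 0.60) and Fosb (-0.34 to 0.79), and under MDL-800 for Fosl2 (-0.0066 without scaling, omissions -0.023 to 0.16). With MDL-800 they turned in NP for Jund (-0.061, GC trend removed) and Fos (-0.12, vehicle 1 and 2 left out). In AF they turned for Fosl2 (-0.00060 with weights, omissions -0.034 to 0.094), Jun (-0.18, vehicle 8 and 9 left out) and Jund (omissions -0.079 to 0.15). The difference of effects turned for Fos (-0.20) and Fosb (-0.058) with those 4 left out, and in omissions (-0.049 to 0.98 and -0.41 to 0.72). The cause was not tested. NP pairs that varied together numbered 2 to 12 over omissions, with 2 and 3 without vehicle 1 or 2. Depth is unknown, and the number of libraries limits the precision.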
